A study of Homo sapiens with 6 samples.

Results

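Keratins, which are called cytokeratins (CK) in clinical pathology, are the proteins of the intermediate filaments of epithelial cells. The transcripts of the keratin gene family were followed here in a pair of human breast cancer cell lines that descend from the same parental line, T47D. Keratin genes were taken as all genes of the array whose name is KRT followed by a number and at most 1 letter from A to C, so that keratin pseudogenes and keratin-associated proteins were left out. This rule gave 55 genes, with 61 probes, of 25940 named genes on the array. Both lines came from T47Dco tumor xenografts. pLUM (pure luminal) cells were grown from an estradiol (E) tumor, kept in 1 nM E, and sorted repeatedly as CLD3+CD49f- cells. pLB (pure luminobasal) cells were grown from a tumor of an animal given E and progesterone, kept under estrogen withdrawal (EWD), and sorted repeatedly as CLD3-CD49f+ cells. CLD3 is claudin 3, a tight junction protein of luminal cells, and CD49f is the integrin encoded by ITGA6. For RNA, pLUM cells had 1 nM E for 72 h and pLB cells were under EWD, so that line, tumor of origin and hormone coincided on all arrays and cannot be told apart. The 3 replicates of a line are separate sorts of that line, so that p-values measure only the spread between these sorts, which may be technical. The cells were also stained for CK5 and sorted into CK5+ and CK5- fractions before RNA was made, and the sources used here do not state which fraction was hybridized. KRT5, which encodes CK5, is therefore given as a description only.

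Keratin filaments are built from pairs. A type I keratin, from a gene cluster on chromosome 17, joins a type II keratin, from a cluster on chromosome 12, and neither kind forms a filament alone. KRT18 is the exception in position, being a type I gene that lies beside its type II partner KRT8 at the end of the chromosome 12 cluster. Which pairs a cell makes depends on its type. Simple, single-layered epithelia make KRT8 with KRT18 and often KRT7 and KRT19. The proliferating basal layer of stratified epithelia makes KRT5 with KRT14, and wounded or activated epidermis adds KRT6 proteins with KRT16 and KRT17. In the breast, the luminal cells that face the duct are rich in simple epithelial keratins, and the basal cells beneath them in KRT5, KRT14 and KRT17.

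Neighbouring keratins resemble each other in sequence, and an array probe can bind the transcript of a close relative. Each probe has 60 bases. All 1830 pairs of keratin probes were laid side by side without gaps, with an overlap of at least 20 bases. For each pair only the alignment with the most identical bases was kept, and runs at other alignments were not examined. In these best alignments 2 pairs of different genes had an unbroken run of 15 bases or more, namely KRT6C with KRT75 and KRT33A with KRT33B. The probes of KRT6A, KRT6B and KRT6C, whose transcripts are near-identical, agreed at no more than 21 bases in their best alignments. The runs within those alignments had at most 4 bases. The closest pairs among the keratins that differed most between the lines were KRT6C with KRT75 and KRT14 with KRT16. They are shown 5′ to 3′ as the array files give them, with capitals at the bases that differ between the probes of a pair where they overlap. All 4 are on the minus strand of hg19, those of KRT6C, KRT75 and KRT16 span an intron, and their letters encode keratin rod sequence.
KRT6C probe, chr12:52863651-52864324: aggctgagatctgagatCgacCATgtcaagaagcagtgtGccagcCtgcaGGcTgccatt
KRT75 probe, chr12:52822220-52822420: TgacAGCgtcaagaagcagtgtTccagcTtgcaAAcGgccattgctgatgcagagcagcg
KRT14 probe, chr17:39740013-39740072: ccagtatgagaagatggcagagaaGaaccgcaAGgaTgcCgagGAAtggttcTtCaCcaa
KRT16 probe, chr17:39767216-39767364: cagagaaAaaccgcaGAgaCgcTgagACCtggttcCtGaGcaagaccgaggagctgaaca
The KRT6C and KRT75 probes agreed at 34 of 43 overlapping bases, with a longest run of 15. Those of KRT14 and KRT16 agreed at 32 of 43, with a longest run of 7. Probes were compared only with each other and not with whole transcripts. Low agreement between probes therefore does not show that each measures its own gene, and binding to the transcript of a relative was not tested.

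Signals are given on the log2 scale relative to the 75th percentile of the gene spots of the same array, so that 0 is the level of that percentile, and the values of 3 arrays are given in the order of replicates 1, 2 and 3. They depend on the probe as well as on the transcript, and are compared between lines for a probe but not between probes. The 75th percentile was 474.1 to 566.1 intensity units on the pLUM arrays and 449 to 868.9 on the pLB arrays, lowest on pLB replicate 3, and 21280 to 22772 of 34127 probes were well above background, a flag set by the scanner software. No gene spot was saturated. Slide 1 held all 3 pLUM arrays with pLB replicate 1, and slide 2 held the other pLB arrays. A probe was tested if it was well above background on at least 3 of the 6 arrays, and a gene was called if its brightest tested probe differed by at least 2-fold with an adjusted p under 0.05 from limma. Precision is limited by the number of arrays. For a single probe, the smallest two-sided p of an exact permutation test with 3 arrays a line is 0.1. In bulk RNA, fewer cells with a transcript and less transcript per cell cannot be told apart.

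The lines shared many keratin transcripts and differed in others. Of 32 keratin genes that could be tested, 15 were higher in pLB, KRT5 included, 6 were lower, and 11 were not called. Over all 17668 genes tested, 22.7% were called higher and 23.0% lower. The median log2 difference (pLB minus pLUM) was 0.69 over the tested keratins and 0.04 over all genes tested. For 24 of the 32 keratins every value of a line lay above every value of the other, against 69.1% of all genes tested. By probe, 16 of 36 tested keratin probes were higher and 8 lower in pLB, against 21.9% and 23.7% of all tested probes. Part of the excess of higher calls was fixed by detection, since 8 keratins (KRT5, KRT6A, KRT6B, KRT6C, KRT13, KRT14, KRT16 and KRT75) were tested only because all 3 pLB arrays saw them, while no pLUM array did. Among the 21 keratins that were well above background on all 6 arrays, 6 were higher, 6 were lower and 9 were not called. This is against 20.6% higher and 20.5% lower over the 14705 genes detected in that way, and the medians were 0.09 and 0.05. The lines did not overlap for 15 of the 21 keratins, against 68.2% of those genes. By their brightest probes, no keratin showed the opposite pattern, with signal on all pLUM arrays and on no pLB array. The plot of the signals by array shows the genes by class, and differences between classes were not tested.

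**Figure D1:**
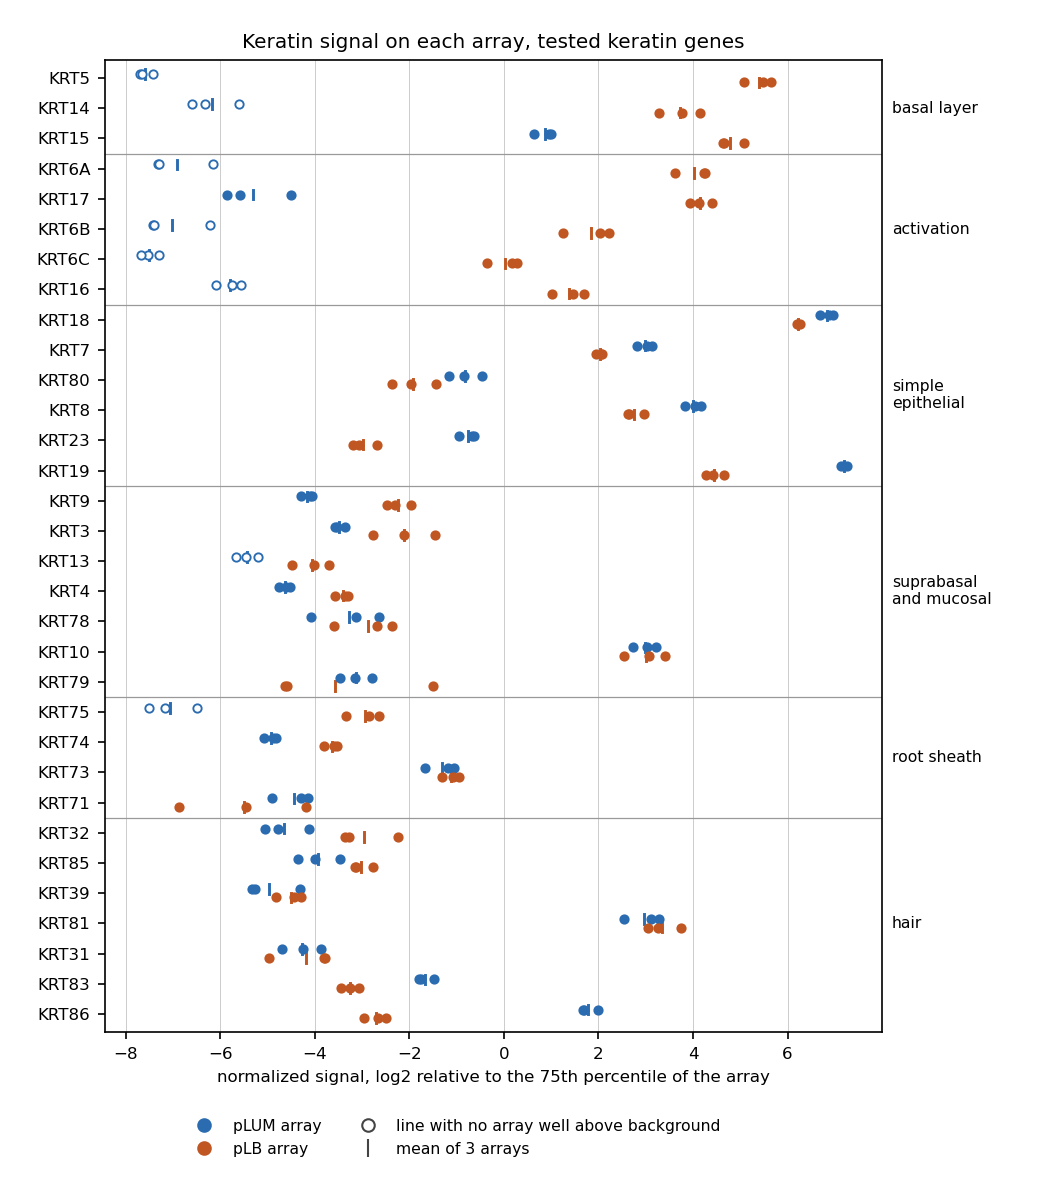
Normalized signal (x axis, log2 relative to the 75th percentile of the array) of the 32 tested keratin genes (rows, grouped by class) on each of 3 pLUM and 3 pLB arrays. Vertical ticks are means and open points mark a line in which no array was well above background. Basal layer and activation keratins lie far to the right in pLB, simple epithelial keratins lie to the left of pLUM in pLB by smaller distances, and positions are not comparable between rows.

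Basal layer keratins were bright in pLB. KRT5, the type II keratin of basal cells, read -7.43, -7.69 and -7.66 on the pLUM arrays, none of them well above background, and 5.65, 5.47 and 5.08 on the pLB arrays. As a description, its pLB signal was at least 1750-fold that in pLUM, a bound that compares the pLB mean with the higher of the probe's own pLUM signal and the lowest signal well above background on each pLUM array. KRT14, the type I partner of KRT5, read -6.32, -6.59 and -5.61 in pLUM, again not above background, and 4.14, 3.76 and 3.29 in pLB. The pLB signal was at least 551-fold that in pLUM (adjusted p = 7.9e-07). Here and below, a p printed beside a bound is that of the fitted difference, which uses signals under background, and not of the bound. A probe that was tested through a single line could be called only toward that line, so that its p is no support for the direction. KRT15, a type I keratin that is also made in basal cells, was the only one of these genes with signal above background in pLUM, at 0.64, 0.96 and 0.99. It read 5.08, 4.63 and 4.66 in pLB, which is 15.2-fold higher (log2 difference 3.93, 95% interval 3.46 to 4.39, adjusted p = 4.9e-06). The arrays of the lines did not overlap for any of these keratins, nor for 69.1% of all genes tested. All 3 on the array were called higher, KRT5 included, against 22.7% of all genes tested. KRT5 and KRT14 were tested only through pLB and could not be called lower. The median log2 difference was 9.90, or 9.11 with KRT5 and KRT14 at their bounds.

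KRT5 is the gene of the basal layer class whose promoter is in the RefSeq table used here. The 250 bases before its start, from RefSeq (GRCh38.p14, chr12:52520395-52520644, minus strand), are printed with the letters GATAA, a motif read by GATA factors, in capitals.
KRT5 promoter: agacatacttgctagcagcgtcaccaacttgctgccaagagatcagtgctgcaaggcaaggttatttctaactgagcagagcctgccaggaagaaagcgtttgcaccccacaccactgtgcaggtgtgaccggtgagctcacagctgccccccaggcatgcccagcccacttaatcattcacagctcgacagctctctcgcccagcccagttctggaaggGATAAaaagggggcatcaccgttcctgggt
On either strand, GATAA was found once in these bases, starting 30 bases before the start of the gene, and the letters occur in 22.7% of the 35116 promoters of the table, each of which also holds 50 bases after the start. They occur in 21 of 38 keratin promoters (55.3%). The match is a description of letters. The table holds 34 of the 55 keratin genes, and 15 of the 32 tested, so that the comparison of the family with other promoters is void.

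Activation keratins followed the basal pair. All 5 were higher in pLB, against 22.7% of all genes tested. The KRT6 genes and KRT16 were tested only through pLB and could not be called lower. The median log2 difference was 8.85, or 7.22 with the KRT6 genes and KRT16 at their bounds. KRT6A, a type II keratin of wounded epidermis, read -6.15, -7.32 and -7.29 in pLUM and 4.23, 4.25 and 3.61 in pLB, and was at least 679-fold higher in pLB (adjusted p = 8.2e-07). KRT6B, of the same group, read -6.21, -7.43 and -7.40 in pLUM and 2.23, 2.04 and 1.25 in pLB, which is at least 149-fold higher (adjusted p = 3.1e-06). KRT6C, the remaining member of the KRT6 group, read -7.52, -7.29 and -7.68 in pLUM and 0.18, 0.27 and -0.36 in pLB, at least 42.5-fold higher (adjusted p = 6.1e-07). None of these was above background on a pLUM array, and pLUM replicate 1 read highest for KRT6A and KRT6B.

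KRT16, the type I partner of KRT6 proteins, read -6.09, -5.76 and -5.56 in pLUM, with no array above background, and 1.69, 1.46 and 1.01 in pLB. Its pLB signal was at least 109-fold higher (adjusted p = 8.7e-07). KRT17, a type I keratin of basal cells and of activated epidermis, read -5.58, -5.86 and -4.50 in pLUM and 4.40, 4.13 and 3.94 in pLB. Because 1 of the 3 pLUM arrays was above background for KRT17, its fitted difference of 9.47 (95% interval 8.64 to 10.30, 708-fold, adjusted p = 1.4e-06) is not a measured ratio on all arrays. Of the 8 basal layer and activation keratins, 7 had their lowest pLB value on replicate 3, the exception being KRT15, whose lowest was on replicate 2. Normexp background correction models the background over each array anew and adds an offset of 50 intensity units to every spot, which lifts dim signals. With it the bounds were smaller, at 263-fold for KRT5, 83.3-fold for KRT6A and 71.9-fold for KRT14. They were 19.7-fold for KRT6B, 15.8-fold for KRT16 and 7.20-fold for KRT6C. All 8 remained called with normexp correction.

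**Figure D2:**
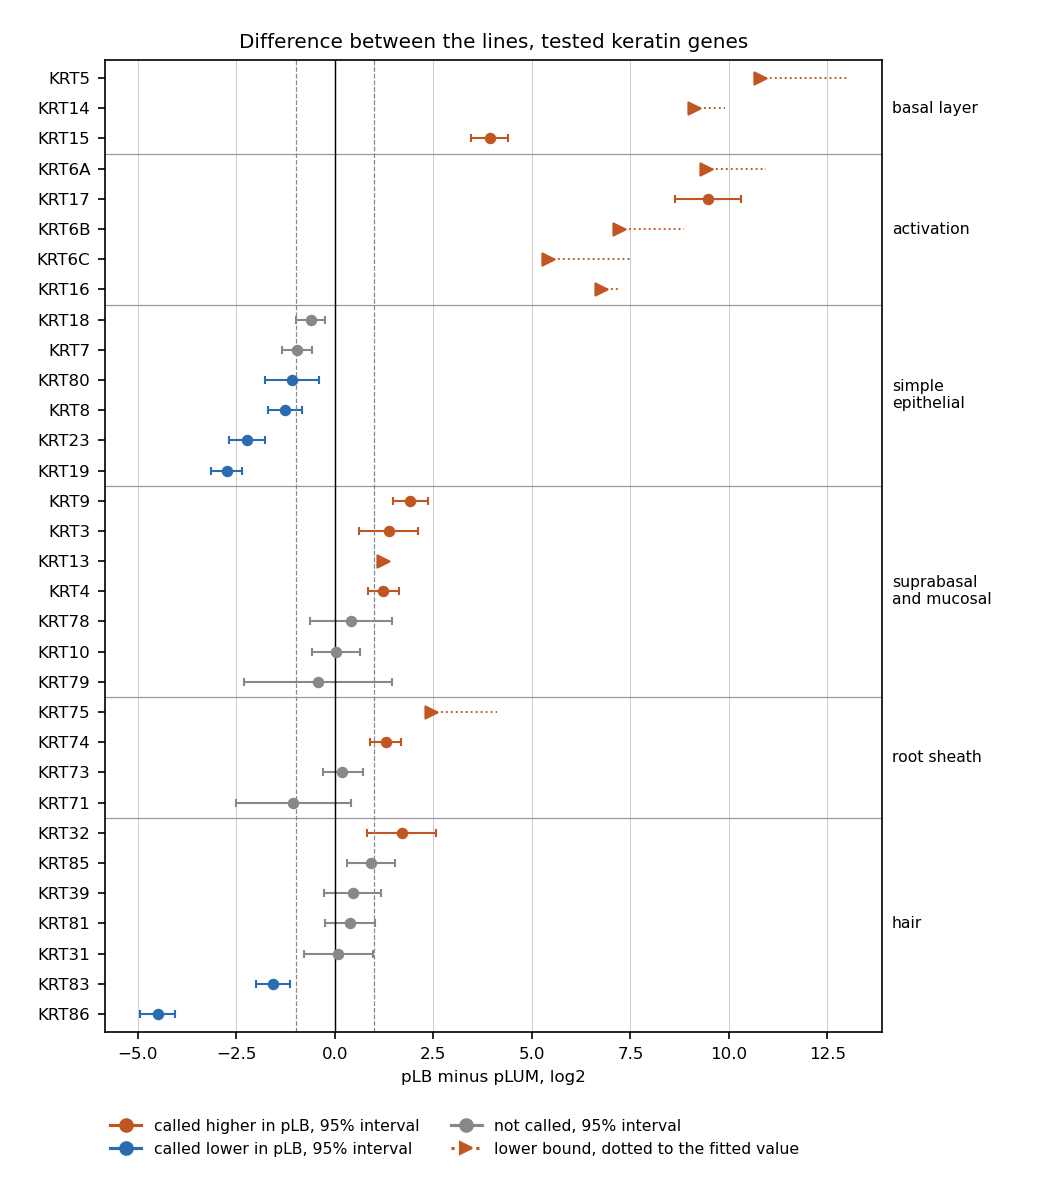
Log2 difference of pLB minus pLUM (x axis) for the 32 tested keratin genes, by class, with 95% intervals from limma. Triangles are lower bounds for keratins with no pLUM array above background, joined by dots to the fitted value, and dashed lines mark a 2-fold difference. The 8 basal layer and activation keratins sit at 3.93 or above, and simple epithelial keratins lie between -2.75 and -0.62.

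Simple epithelial keratins were lower in pLB or not called. Of 6 tested members 4 were lower and none was higher, against 23.0% lower and 22.7% higher over all genes tested. The median log2 difference was -1.18. KRT19, a type I keratin of luminal cells that lacks the tail domain, read 7.14, 7.20 and 7.25 in pLUM and 4.65, 4.28 and 4.42 in pLB, 6.72-fold lower (log2 difference -2.75, 95% interval -3.14 to -2.36, adjusted p = 1.1e-05). KRT23, another type I keratin, read -0.64, -0.68 and -0.94 in pLUM and -2.69, -3.07 and -3.20 in pLB, 4.70-fold lower (adjusted p = 6.5e-05). A second KRT23 probe was above background on 2 pLUM arrays and on no pLB array and was not tested. The lines did not overlap for either gene, and both kept signal above background on all 6 arrays.

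KRT8 and KRT18, the primary pair of simple epithelia, differed less. KRT8 read 4.16, 4.05 and 3.82 in pLUM and 2.63, 2.65 and 2.97 in pLB, 2.40-fold lower (log2 difference -1.26, 95% interval -1.69 to -0.83, adjusted p = 0.00075). KRT18 read 6.69, 6.87 and 6.97 in pLUM and 6.21, 6.20 and 6.26 in pLB. Its log2 difference of -0.62 (95% interval -0.99 to -0.25, adjusted p = 0.011) did not reach 2-fold, although the lines did not overlap. The other KRT18 probe gave the same size, -0.61, with an adjusted p of 0.083 and overlapping lines. Both partners of the pair thus stayed well above background in pLB.

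KRT8 was the keratin whose probes disagreed. Its A_24_P67395 probe, in NM_002273 as the brightest probe is, read -3.74, -2.29 and -2.42 in pLUM and -4.43, -5.82 and -5.91 in pLB, and was above background on 1 of 3 pLB arrays (log2 difference -2.57, adjusted p = 0.0037). The probe listed for ENST00000551318 went the opposite way, from -0.75, -0.72 and -0.88 in pLUM to 1.09, 1.02 and 1.22 in pLB, 3.72-fold higher (adjusted p = 4.5e-05). That probe is at chr12:53343241-53343300 of hg19 on the minus strand, between the brightest probes of KRT8, which ends at 53291085, and of KRT18, which starts at 53346116 on the plus strand. In GRCh38.p14 the gene spans of KRT8 and KRT18 share 1006 bases. With the mean of its probes in place of the brightest, the log2 difference of KRT8 was -0.65 and the call was lost.

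KRT7, a type II keratin of ducts, read 3.14, 3.02 and 2.82 in pLUM and 2.08, 1.94 and 2.06 in pLB, with no overlap, but its log2 difference of -0.97 (95% interval -1.35 to -0.58, adjusted p = 0.0016) fell short of 2-fold. KRT80, a type II keratin, read -1.17, -0.85 and -0.46 in pLUM and -1.44, -1.96 and -2.37 in pLB, 2.14-fold lower (adjusted p = 0.013). The KRT80 call was lost within slide 1, with a log2 difference of -0.61, with normexp correction (-0.92), and without pLUM replicate 3 or pLB replicate 3, at -0.91 and -0.87. KRT20, a type I keratin of gut and urothelium, was above background on no array.

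Suprabasal and mucosal keratins are made as cells leave the basal layer. Apart from KRT10, those tested read under the 75th percentile on all arrays. Of 13 on the array 7 were tested, and 4 were called, all higher in pLB, against 22.7% higher over all genes tested. KRT9, the keratin of palm and sole, read -4.11, -4.30 and -4.06 in pLUM and -1.96, -2.30 and -2.47 in pLB, 3.76-fold higher (adjusted p = 0.00012). KRT3, a corneal type II keratin, read -3.36, -3.57 and -3.52 in pLUM and -2.77, -2.11 and -1.46 in pLB, 2.58-fold higher (adjusted p = 0.0075). The pLB arrays spread widely for KRT3, and within slide 1 its log2 difference was 0.71 and not called.

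KRT4 and KRT13 form the pair of suprabasal cells in mucosa. KRT4 read -4.76, -4.61 and -4.52 in pLUM and -3.57, -3.29 and -3.36 in pLB, 2.34-fold higher (adjusted p = 0.00053). KRT13 read -5.66, -5.46 and -5.20 in pLUM, with no array above background, and -3.69, -4.49 and -4.02 in pLB, at least 2.34-fold higher (adjusted p = 0.0022). With normexp background correction none of KRT3, KRT4, KRT9 and KRT13 was called, and the log2 difference of KRT13 turned to -0.19.

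KRT10, the type I keratin of differentiating epidermis, was bright in both lines and gave the smallest difference among the tested keratins. It read 2.73, 3.02 and 3.21 in pLUM and 3.40, 3.07 and 2.54 in pLB, a log2 difference of 0.02 with a 95% interval of -0.59 to 0.63. KRT1, its type II partner, was above background on 2 of 3 pLB arrays and on no pLUM array and did not enter the test. Its probe read -7.53, -7.63 and -7.74 in pLUM and -3.59, -4.25 and -4.93 in pLB, and it was called higher in pLB when no filter on dim probes was set (adjusted p = 0.0003). KRT78 read between -4.09 and -2.65 in pLUM and between -3.59 and -2.36 in pLB, with overlapping lines and a log2 difference of 0.41 (95% interval -0.63 to 1.44). KRT79 read -2.78, -3.15 and -3.47 in pLUM and -4.58, -4.64 and -1.49 in pLB, so that pLB replicate 3 alone lay above the pLUM arrays. Its log2 difference was -0.43 (95% interval -2.32 to 1.46), and -1.47 and called without pLB replicate 3. KRT76 was above background on 2 pLB arrays, and KRT2, KRT12, KRT24 and KRT77 on none of the 6 arrays.

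Keratins of the hair follicle root sheath had 9 genes on the array, of which 4 were tested and 4 were above background on no array. Of those tested 2 were called, both higher in pLB, against 22.7% higher over all genes tested. KRT75, a type II keratin of the companion layer that is encoded beside the KRT6 genes, read -7.16, -7.51 and -6.50 in pLUM, with no array above background, and -2.85, -2.64 and -3.35 in pLB, at least 5.39-fold higher (adjusted p = 2.9e-05). With normexp correction its log2 difference was 0.49 and it was not called. Its probe is the one that shares the run of 15 bases with the brighter KRT6C probe shown above. KRT74, a type II keratin of the inner root sheath, read -5.08, -4.83 and -4.88 in pLUM and -3.54, -3.80 and -3.59 in pLB, 2.44-fold higher (adjusted p = 0.00041), and its log2 difference was -0.04 with normexp correction.

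KRT73, also of the inner root sheath, read -1.06, -1.18 and -1.67 in pLUM and -1.08, -1.30 and -0.95 in pLB, with a log2 difference of 0.19 (95% interval -0.31 to 0.70). KRT71, of the same layer, read -4.14, -4.91 and -4.30 in pLUM and -6.87, -5.46 and -4.19 in pLB, where 1 of 3 arrays was above background. The pLB arrays of KRT71 spread over more than the difference between the lines, which was -1.06 (95% interval -2.52 to 0.40) and not called. It was called within slide 1, where pLB replicate 1 alone stands for the line (-2.42), and without pLB replicate 3 (-1.71). The type I root sheath keratins KRT25, KRT26 and KRT27 and the type II keratin KRT72 were above background on no array, and KRT28 on 2 pLB arrays.

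A hair keratin had the largest decrease among the tested keratins. KRT86, a type II keratin of the hair cortex, read 1.98, 1.70 and 1.68 in pLUM and -2.96, -2.67 and -2.50 in pLB, 22.6-fold lower (log2 difference -4.50, 95% interval -4.94 to -4.05, adjusted p = 2.2e-06). All 6 arrays were above background for it. KRT83, a close relative of KRT86, read -1.79, -1.76 and -1.47 in pLUM and -3.25, -3.45 and -3.06 in pLB, 2.99-fold lower (adjusted p = 0.00025). Its other probe, above background on all pLUM arrays and on no pLB array, was at least 1.53-fold lower, a bound under 2-fold. The adjusted p of 0.0005 belongs to the fitted log2 difference of -2.37. With normexp correction this KRT83 probe was at -0.83 and was not called. KRT81, from the same group of hair genes, read 3.27, 3.11 and 2.53 in pLUM and 3.75, 3.25 and 3.04 in pLB, with overlapping lines and a log2 difference of 0.38 (95% interval -0.26 to 1.01). The best ungapped alignments of the KRT81, KRT83 and KRT86 probes agreed at 18 to 21 bases, with runs of at most 5. The probes of these near-identical genes therefore differed in sequence and in what they showed between the lines. Binding of these probes to the transcripts of the related genes was not tested.

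KRT32, a type I hair keratin, was higher in pLB, from -5.06, -4.12 and -4.78 to -3.37, -2.24 and -3.28 (3.22-fold, adjusted p = 0.0056), but not within slide 1 (log2 difference 1.28, adjusted p = 0.065) or with normexp correction (0.26). KRT85, a type II hair keratin, read -3.46, -4.0 and -4.35 in pLUM and -3.13, -3.15 and -2.77 in pLB, and its log2 difference of 0.91 (adjusted p = 0.017) was under 2-fold. KRT31 and KRT39, of type I, had overlapping lines, with log2 differences of 0.09 (95% interval -0.79 to 0.96) and 0.46 (95% interval -0.27 to 1.18), and KRT39 was above background on 3 of the 6 arrays. Of 17 hair keratins on the array 7 were tested, 1 was higher and 2 were lower, against 22.7% and 23.0% of all genes tested. KRT33A, KRT33B, KRT34, KRT35, KRT37, KRT38, KRT40, KRT82 and KRT84 were above background on no array, KRT36 was so on 1 pLB array, and the unclassified KRT222 on none. The family therefore had 23 genes without a test, 19 of them on no array.

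The differences are also given by their order on the chromosomes. Leaving aside genes other than keratins, KRT75, KRT6B, KRT6C, KRT6A and KRT5 are consecutive by probe position in the type II cluster (hg19). All 5 were higher in pLB, KRT5 as a description only. No pLUM array saw these 5, so that they were tested only through pLB and could not be called lower. At the end of the type I cluster, KRT9, KRT14, KRT16 and KRT17 are consecutive and were all higher in pLB. Before them come KRT13 and KRT15, which were higher, and KRT19, which was lower, so that opposite calls lie side by side. KRT13, KRT14 and KRT16 were also tested only through pLB, and KRT9, KRT13 and KRT75 were not called with normexp correction. On chromosome 12, of 20 tested keratins 8 were higher and 4 lower, against 22.7% and 23.0% of all genes tested. Of the 4 lower genes 3, KRT80, KRT86 and KRT83, are among the first 5 positions, with KRT8 near the far end. On chromosome 17, of 12 tested keratins 7 were higher and 2 lower, against the same shares. Genes that arose side by side also share class and sequence, and these were not separated from position.

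**Figure D3:**
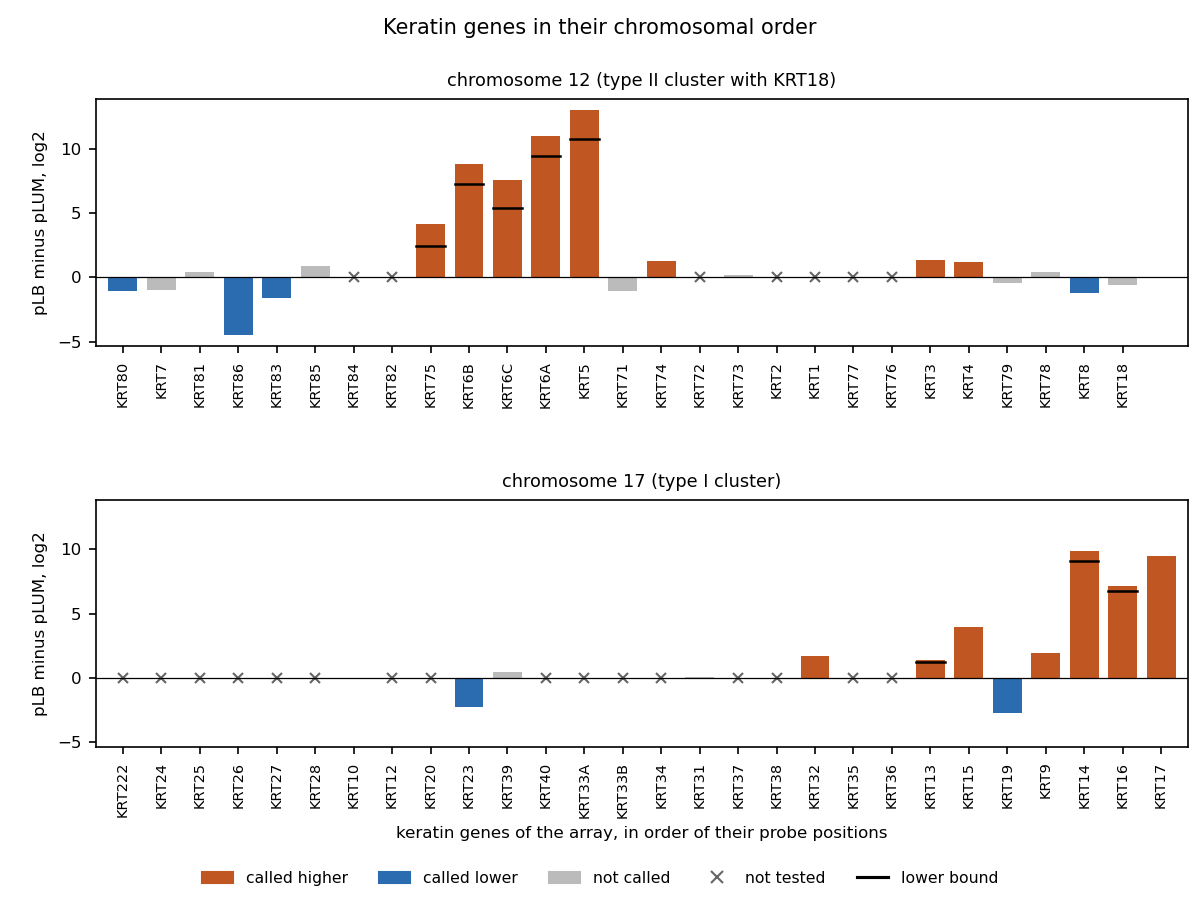
Log2 difference of pLB minus pLUM (y axis) for the keratin genes of the array in their order along chromosome 12 (27 genes) and chromosome 17 (28 genes). Crosses are genes not tested, black bars within columns are lower bounds, and gaps on the baseline are differences close to 0 (KRT10, 0.02, and KRT31, 0.09). The high columns form a run from KRT75 to KRT5 in the upper panel and from KRT14 to KRT17 at the right end of the lower panel. KRT15 (3.93) is also high, and KRT19 (-2.75) and KRT9 (1.91) lie between it and KRT14.

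Keratin filaments are anchored to desmosomes and hemidesmosomes by linker proteins, and epithelial cells can also hold other intermediate filaments. Of 35 such genes 29 were tested. In pLB 14 were higher and 5 lower, against 22.7% and 23.0% of all genes tested, and the median log2 difference was 0.71. Among the 19 linkers, 9 were higher and 4 lower. PKP1, the plakophilin of stratified epithelia, read -4.83, -5.52 and -5.05 in pLUM, where 1 array was above background, and 2.12, 1.84 and 1.89 in pLB (log2 difference 7.09, 95% interval 6.57 to 7.60, adjusted p = 6.8e-07). DSP, desmoplakin, which ties keratins to the desmosome, read 2.13, 2.31 and 2.68 in pLUM and 5.85, 5.48 and 4.95 in pLB, 8.31-fold higher (adjusted p = 6.6e-05), and its other probe was 10.8-fold higher. The arrays of the lines did not overlap for these desmosomal genes.

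DST, whose NM_001723 transcript encodes the hemidesmosomal form of dystonin, read -1.33, -2.06 and -2.24 in pLUM and 2.17, 2.10 and 2.40 in pLB, 17.1-fold higher (adjusted p = 1.4e-05). A further probe of that transcript was 9.06-fold higher, whereas a probe of NM_015548 was 2.42-fold lower (adjusted p = 0.0015). SFN, an adaptor that binds keratins, read 2.91, 2.89 and 2.82 in pLUM and 7.48, 7.35 and 7.84 in pLB, 25.7-fold higher (adjusted p = 1.6e-06). PLEC, plectin, which binds several kinds of filament, was 4.52-fold higher by its brighter probe and 2.30-fold by the other. The other linkers that were higher were PKP2 (5.47-fold), FAM83H (3.82-fold), PPL (3.36-fold) and PKP3 (2.39-fold). PNN, a desmosome-associated and nuclear protein, was 4.06-fold lower, EPPK1, epiplakin, 2.81-fold, TCHH, trichohyalin of the root sheath, 2.62-fold, and TGM1, a transglutaminase, 2.03-fold. The TGM1 call was lost with quantile normalization (-0.97), spike-in scaling (-0.73) and normexp correction (-0.90), without pLUM replicate 3 (-0.83) and without pLB replicate 2 (-0.89). By their brightest probes PADI2 and FBF1 were not called. Their other probes, above background on no pLB array, were called, at least 3.96-fold lower for PADI2 and 2.09-fold for FBF1. With normexp correction these probes were at -1.36 and -0.83.

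Among the 16 other intermediate filament genes 10 were tested, and 5 were higher and 1 lower in pLB, against 22.7% and 23.0% of all genes tested. VIM, the filament protein of mesenchymal cells, was dim throughout, at -4.99, -5.01 and -5.37 in pLUM and -1.79, -2.47 and -2.16 in pLB, 7.89-fold higher (adjusted p = 3.1e-05), and was not called with normexp correction (log2 difference 0.82). The lamins of the nucleus were also higher, LMNB2 by 4.12-fold, LMNB1 by 2.65-fold and LMNA by 2.31-fold, as was NES, nestin, by 3.48-fold. The NES call was lost with normexp correction (log2 difference 0.23), and its other probe, with a log2 difference of 0.41, was not called. SYNC, syncoilin, was 2.27-fold lower, but was not called with normexp correction (-0.95) or spike-in scaling (-0.89). GFAP, NEFL, NEFM, NEFH and SYNM, the filaments of glia, neurons and muscle, were above background on no array.

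Markers of luminal and basal breast cells moved with the keratins, and their part in the keratin differences was not tested. All 8 luminal markers were lower in pLB, against 23.0% of all genes tested. Their summed signal was 7.84 to 11.4 in pLB, in units of the 75th percentile, and 204 to 222 in pLUM. All 7 basal markers were higher, against 22.7% of all genes tested, with sums of 142 to 178 in pLB and 4.66 to 6.32 in pLUM. TP63 and NGFR were above background on no pLUM array and could not be called lower. PGR, by its brightest probe, was above background on no pLB array and could not be called higher. Among the markers, CLDN3 and ITGA6 encode proteins by which the lines had been sorted and are not independent of the labels. The paper also lists transcripts of ESR1, PGR, GATA3, FOXA1 and MUC1 as lower and of TP63, CDH3 and EGFR as higher in pLB. These genes are therefore not independent of earlier results on the lines. The 6 myoepithelial markers had sums of 0.521 to 0.646 in pLUM and 1.1 to 1.41 in pLB. Of these 3 were higher and none lower, against 22.7% and 23.0% of all genes tested. With normexp correction only CNN1 of these 3 kept its call (log2 difference 1.44), while ACTA2 was at 0.17 and MYH11 at -0.20, and MYH11 was also not called within slide 1 (0.38). For markers of other cells the sums in pLUM and pLB were 0.767 to 0.966 and 0.786 to 1.14 over 6 fibroblast genes, 0.0728 to 0.108 and 0.0937 to 0.207 over 4 endothelial genes, and 0.470 to 0.595 and 0.428 to 0.552 over 5 leukocyte genes. The fibroblast sum is carried by COL1A1, which was not called. COL1A2 was above background on no pLUM array and in pLB exceeded that limit at least 11.5-fold, a call it kept with normexp correction (log2 difference 1.33). VWF and CD68 were called higher in pLB, but not with normexp correction (-0.25 and 0.09). COL3A1, PDGFRB, DCN, LUM, PECAM1 and KDR were above background on no array.

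The keratin differences depended on how dim signals were handled. The 8 basal layer and activation keratins and KRT8, KRT19, KRT23, KRT83 and KRT86 were called with the background correction of the files and with normexp correction. The 7 other keratins that were higher in pLB, all of them dim, were called with the first only, as was KRT80 among those that were lower.

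**Figure D4:**
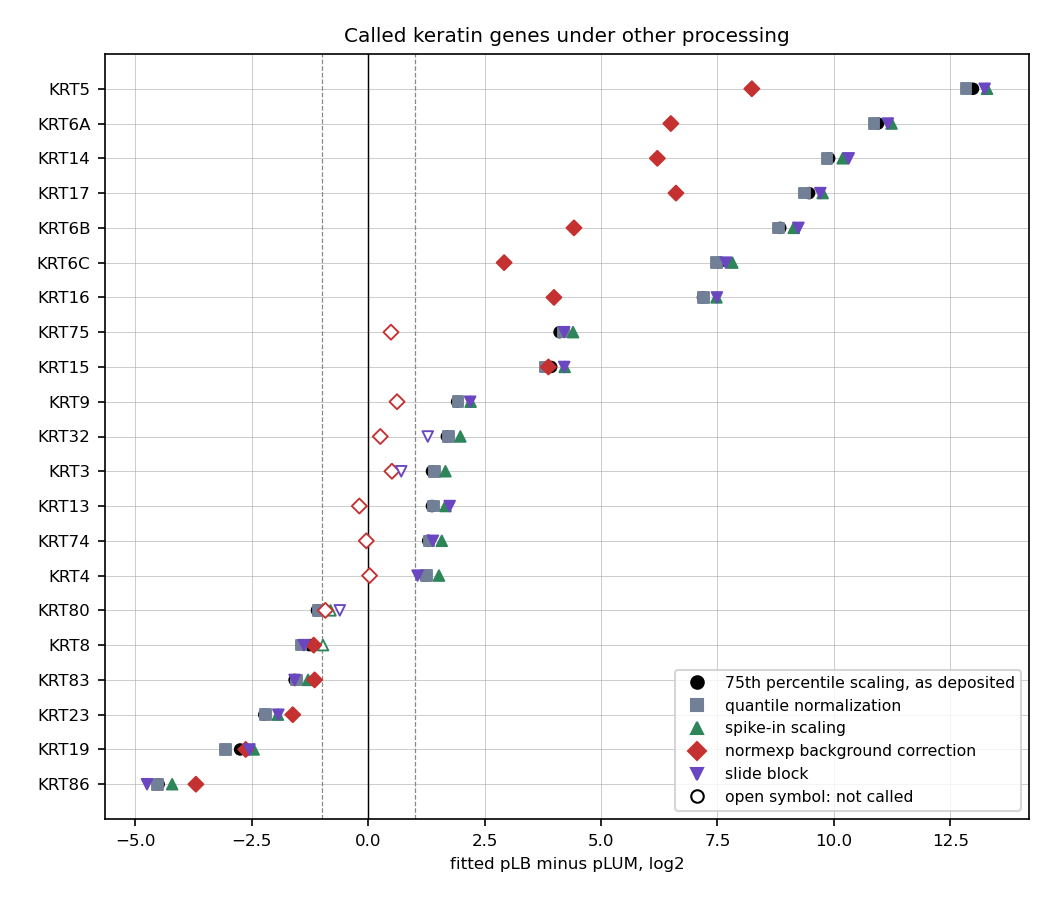
Fitted log2 difference of pLB minus pLUM (x axis) for the 21 called keratin genes (rows) with the 75th percentile and under 4 other ways of processing. Open symbols are not called, and dashed lines mark a 2-fold difference. With normexp correction (diamonds) the large differences shrink, from 12.99 to 8.24 for KRT5, and those of dim keratins such as KRT75 and KRT4 move close to 0.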

How the data were processed

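RNA of 3 sorts each of pLUM and pLB was measured on 1-colour Agilent arrays. Per the file headers, each array was read with Agilent Feature Extraction (version 10.10.1.1), and the authors deposited an intensity for every spot, background-corrected within its array, with quality flags but no scaling between arrays. The submitters' processing notes name Partek, whose output was not used here. Names, transcripts and positions are those of the files (hg19).

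From these intensities log2 values relative to each array's 75th percentile were computed. Controls and 296 to 387 outlier spots on each array were dropped before replicate spots were averaged. The test used 23103 probes, seen well above background by 3 or more of the arrays, and the functions lmFit and eBayes of limma (version 3.58.1, R 4.3.3), with Benjamini-Hochberg adjustment over all tested probes. Other scripts ran in Python 3.11.15. The fit was tested on simulated data. A gene is represented by its tested probe with the highest mean. Every tested keratin is named, as are the called genes of the filament and linker list with VIM, DSP and PLEC. The keratins and lists were chosen with earlier results of these data known. Replicate numbers were not used as pairs, since same-numbered arrays did not deviate together (r = -0.265, -0.095 and -0.218). Alternatives were other scalings, background correction with normexp (offset 50), filters, thresholds, tests, probe rules, a slide block, a replicate block and leaving out each array. Probes were to be printed where RefSeq proteins place them in coding sequence. No protein table was used here, and 4 probes were printed whose letters read as keratin rod sequence.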

Additional observations from a re-analysis of the deposited data

How the results depend on the processing

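Of the 21 called keratins, 12 kept their call under every alternative that tested them. A gene that a filter removed was not counted as losing its call. Of the 32 tested keratins, 14 gained or lost a call under at least 1 alternative. With normexp background correction the keratins called higher in pLB numbered 8 in place of 15, all tested probes called higher 3004 in place of 5054, and the filament and linker genes called lower 3 in place of 5, the last also 3 with spike-in scaling. KRT13 and KRT74 changed sign with normexp, to -0.19 and -0.04. With probes required to be above background on all 6 arrays, 6 keratins were called higher, since the filter removes those that pLUM lacked. Without an array, 15 to 16 keratins were called higher and 6 to 7 lower, of the filament and linker genes 14 to 15 and 4 to 6, and of all probes 4994 to 5122 and 5107 to 6159. Scaling on the spike-in spots moved the median difference of all probes by 0.29 and the share of calls that were higher from 48.0% to 59.9%. KRT8 (-0.97) and KRT80 (-0.81) then lost their calls and KRT85 (1.21) gained one. Normexp moved that median by -0.25. KRT7 was called with quantile normalization (-1.10) and without pLUM replicate 3 (-1.05), and KRT85 without pLUM replicate 1 (1.15). KRT80 also lost its call under the methods' t-test with Benjamini-Hochberg adjustment (adjusted p = 0.056). LMNA (0.98) and PKP3 (1.0) lost theirs with quantile normalization, and LMNB1 (0.75) with the mean of its probes. With the slide as a block, 13 keratins were higher and 6 lower. With the replicate block 15 were higher and 6 lower, and no keratin call changed. Signal over background limits the 7 dim keratins that were called higher only without normexp.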

Other observations

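Probes named for keratin pseudogenes and neighbours lie outside the family as counted above. KRT16P2, a pseudogene of KRT16, read -5.66, -4.92 and -5.45 in pLUM, where 1 array was above background, and 2.79, 2.61 and 2.20 in pLB (log2 difference 7.88, adjusted p = 7.9e-07 from limma). KRT42P, a type I pseudogene beside KRT17, had a probe that was at least 87.7-fold higher in pLB (adjusted p = 5.1e-06) and another with a log2 difference of 0.37 that was not called. KRT19P2 was 6.32-fold lower (adjusted p = 8.3e-05) and KRT8P12 2.55-fold lower (adjusted p = 0.00025), whereas KRT18P55, at -0.83, was not called. The differences of KRT16P2, KRT19P2, KRT8P12 and KRT18P55 had the sign of those of the brightest KRT16, KRT19, KRT8 and KRT18 probes, and binding of the parent transcripts to the pseudogene probes was not tested.

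Keratin-associated proteins, which fill the matrix between keratin filaments in hair, had 87 genes on the array, of which 42 were tested, 5 were higher and 2 were lower in pLB, against 22.7% and 23.0% of all genes tested. KRTAP3-3 read -0.52, -0.26 and -1.08 in pLUM and 4.24, 3.99 and 4.88 in pLB, 31.7-fold higher (adjusted p = 1.1e-05). KRTAP19-8 was 9.19-fold higher, KRTAP5-7 7.25-fold and KRTAP19-5 2.77-fold, and KRTAP20-4, above background on no pLUM array, at least 7.23-fold. KRTAP5-2 was 2.23-fold lower and KRTAP21-1, above background on no pLB array, at least 1.77-fold lower, a call that was lost with the slide as a block (log2 difference -1.12, adjusted p = 0.15). KRTAP3-3 and KRTAP19-8 were the 2 that stayed past the 2-fold threshold with normexp background correction, at log2 differences of 4.72 and 1.57. KRTDAP was 2.34-fold lower and KRTCAP3 3.46-fold lower, and KRTCAP2, at 0.68, was not called.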
